A study of Mus musculus with 10 samples.

Results

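The dual-specificity MAP kinase phosphatases (DUSPs) of naive CD4 T cells are described here by the chromatin accessibility of 8 genes, Dusp1, Dusp2, Dusp4, Dusp5, Dusp6, Dusp7, Dusp10 and Dusp16. Members were all peaks that the deposited annotation gives to 1 of these symbols, which took 98 of the 61581 peaks. MAP kinases are switched on by phosphorylation of a threonine and a tyrosine in the same activation loop, and these enzymes remove both phosphates. In T cells the ERK, JNK and p38 kinases carry signals from the T cell receptor, and several of the phosphatase genes are themselves induced by that signal, which makes them negative feedback regulators. DUSP6 and DUSP7 act on ERK in the cytoplasm and DUSP5 on ERK in the nucleus. DUSP1, DUSP2 and DUSP4 are inducible nuclear enzymes, and DUSP10 and DUSP16 act mainly on JNK and p38.

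ATAC-seq, in which the Tn5 transposase cuts and tags open chromatin, was done on 10 libraries of 60000 sorted cells each (CD3+, CD4+, CD25-, CD44 low or negative, CD62L+) from spleen and lymph node. All mice were Satb1fl/fl x CD4-CreERT2wt/+, in which a tamoxifen-dependent Cre driven by CD4 can delete floxed Satb1, a gene for a chromatin organiser. The KO group (Sample_2268_KO to Sample_2272_KO) came from mice given tamoxifen, and the WT group (Sample_2273_WT to Sample_2277_WT) from untreated mice of the same genotype, so loss of Satb1 and exposure to tamoxifen cannot be told apart. Age and sex are not given. Nothing in the labels ties a library to its own animal, and the p-values below reflect only how far the libraries of a group spread. The floxed segment is not given either, and Satb1 peaks were not used to check the labels.

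In-peak totals ranged from 673398 to 2184717 counts in KO libraries and from 1025283 to 2081740 counts in WT libraries. Of 20 library pairs within a group, 8 differed by no more than sampling noise (chi-square per degree of freedom of at most 1), against 0 of 25 pairs between groups. The totals of paired libraries differed, which does not show that they are independent samples. All 10 were kept as samples, and results with such libraries merged are given where they change a call. All levels below are in CPM (counts-per-million) of the total over the peaks with enough counts to be tested, scaled by TMM. Summed over 5 T cell genes (Cd3e, Cd3d, Cd3g, Cd4 and Cd28), levels were 681 to 706 CPM in KO libraries and 633 to 720.2 CPM in WT libraries. The B cell genes Cd79a and Blk summed to 14.4 to 25.0 CPM in KO libraries and 15.7 to 27.9 CPM in WT libraries, while Ms4a1 and Pax5 were not analysed here. In bulk libraries, a larger share of cells with an open site and a more open site in each cell cannot be told apart.

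Summed over the 8 genes, accessibility differed by less than the spread between libraries, and the peaks that changed belonged to Dusp6. Summed over all 98 peaks, KO libraries averaged 1722 ± 57.2 CPM and WT libraries 1706 ± 32.8 CPM (SD, n = 5 each). Of the 98 peaks, 59 had enough counts to be tested, and 2 were higher in KO and 0 lower (edgeR quasi-likelihood test, Benjamini-Hochberg adjusted over 34910 tested peaks, threshold 0.05). Among all tested peaks 2.94% were called higher and 0.911% lower (3.85% in either direction), so the members' share lies near the background. At an unadjusted p under 0.05 there were 10 of 59 member peaks, against 13.6% of all tested peaks. DESeq2 called 1 member peak higher and 0 lower. The median log2 fold change of the tested member peaks was 0.06, against -0.01 for all tested peaks. The 39 untested peaks held 9.11% of the members' counts, with mean counts of 2.2 to 9.7 per library.

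**Figure D1:**
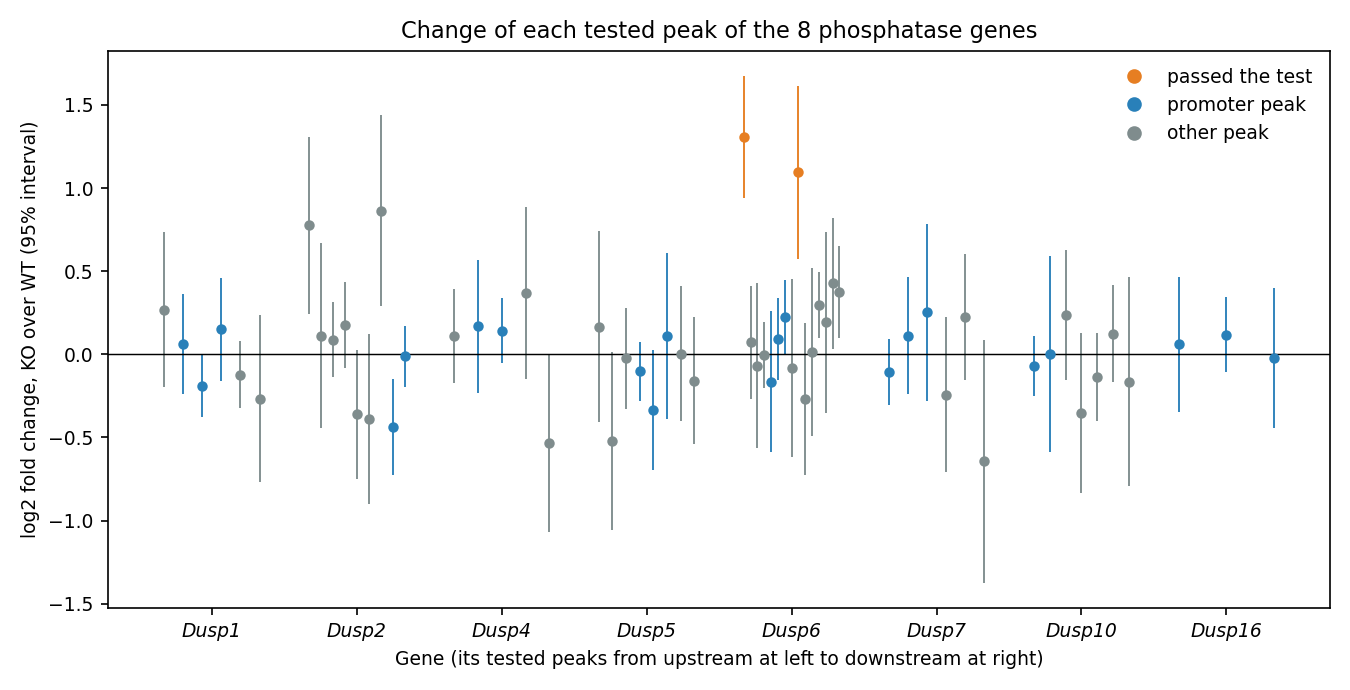
Log2 fold change (KO over WT, with 95% interval) of the 59 tested peaks, grouped by gene and ordered within each gene from upstream to downstream. Orange points passed the test, blue points are promoter peaks and grey points are other peaks; the 2 orange points are both Dusp6, at 1.31 and 1.09.

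Dusp6 encodes the cytoplasmic ERK phosphatase that is a classical ERK feedback regulator. It lies on the plus strand of chromosome 10 (99263231 to 99267489, mm10) and has 28 of the 98 peaks, of which 15 were tested. The 300 bases around its start lie wholly within its start-site peak. They are shown with those of Dusp5 and Dusp1 because the 3 start-site peaks are described below and the windows differ in the motifs they hold. Sequences are RefSeq's for GRCm38.p6, read 5′ to 3′ on the gene's strand, for 7 of the 8 genes. Capitals mark ETS cores, cyclic AMP response element (CRE) cores, the full CRE and CArG boxes, on either strand.
Dusp6 promoter, chr10:99262981-99263280, plus strand: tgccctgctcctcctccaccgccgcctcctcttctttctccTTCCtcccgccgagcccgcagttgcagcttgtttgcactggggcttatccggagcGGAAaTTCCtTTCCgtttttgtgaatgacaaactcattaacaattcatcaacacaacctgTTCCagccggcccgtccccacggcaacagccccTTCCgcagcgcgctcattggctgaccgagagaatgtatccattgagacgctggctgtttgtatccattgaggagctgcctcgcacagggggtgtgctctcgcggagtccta
Dusp5 promoter, chr19:53528895-53529194, plus strand: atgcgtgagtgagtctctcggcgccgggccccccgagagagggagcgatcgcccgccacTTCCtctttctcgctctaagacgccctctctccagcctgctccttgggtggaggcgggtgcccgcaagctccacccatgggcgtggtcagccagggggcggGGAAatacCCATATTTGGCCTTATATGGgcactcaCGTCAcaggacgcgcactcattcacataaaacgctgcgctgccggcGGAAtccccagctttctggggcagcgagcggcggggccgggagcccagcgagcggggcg
Dusp1 promoter, chr17:26508423-26508722, minus strand: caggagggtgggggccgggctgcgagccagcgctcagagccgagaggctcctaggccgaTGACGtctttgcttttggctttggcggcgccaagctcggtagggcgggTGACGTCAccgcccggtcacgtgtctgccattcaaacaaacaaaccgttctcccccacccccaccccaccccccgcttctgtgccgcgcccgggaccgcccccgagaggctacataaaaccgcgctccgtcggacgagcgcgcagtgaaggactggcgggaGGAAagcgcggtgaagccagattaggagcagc

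The Dusp6 window held 6 ETS cores (GGAA), a number or more found in 15.7% of 32851 promoters of this length, and no CRE or CArG box. The Dusp5 window held 2 CArG boxes, the element bound by serum response factor, which 1.63% of promoters hold. The CArG box was added to the search after the Dusp5 sequence had been read. The Dusp1 window held the full CRE (TGACGTCA), as 1.79% of promoters do. CRE cores (TGACG, which the full CRE contains) were in Dusp1, Dusp2, Dusp5 and Dusp16 and in 20.8% of promoters. The remaining motifs were searched in the same way. The E-box (CACGTG) was in Dusp1 and Dusp2 and in 7.15% of promoters, and the GC box (GGGCGG) in 6 of the 7 windows and 35.7% of promoters. None of the 7 windows held the AP-1 site (TGANTCA) or the TATA box (TATAAA), which are in 7.81% and 13.6% of promoters. GC content of the windows ran from 57.3% in Dusp6 to 78.7% in Dusp7, against a median of 52.7%.

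The strongest change lay 68264 bp before the Dusp6 start, in the last intron of the neighbouring gene Poc1b (chr10:99194723-99194967). Its levels were 23.2, 19.8, 25.0, 23.9 and 29.9 CPM in the KO libraries, in the order of their numbers, against 7.61, 10.5, 11.0, 8.58 and 11.5 CPM in the WT libraries. Every KO library lay above every WT library. The means were 24.4 ± 3.67 CPM for KO, against 9.83 ± 1.66 CPM for WT (SD, n = 5 each), a fold of 2.47 (95% interval 1.92 to 3.19, edgeR adjusted p = 1.17e-07). It was the single tested member peak whose groups did not overlap, a pattern seen with KO above WT in 2.78% of tested peaks and with KO below WT in 1.19% of them and 0 members. With all libraries thinned to the smallest total, the log2 fold change was 0.89 and the adjusted p 0.106, and the cause of the smaller fold was not tested.

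The second peak that passed lay 5659 bp past the start, downstream of the gene (chr10:99268890-99269069). It had 9.60, 9.39, 21.7, 13.3 and 14.5 CPM in the KO libraries and 6.52, 5.52, 3.66, 5.72 and 10.1 CPM in the WT libraries. Here the groups overlapped, because Sample_2277_WT lay above Sample_2268_KO and Sample_2269_KO. The means were 13.7 ± 4.99 CPM for KO, against 6.31 ± 2.38 CPM for WT (SD, n = 5 each), a fold of 2.13 (1.49 to 3.06, edgeR adjusted p = 0.00345). The peak averaged 13.4 counts per library, and DESeq2 gave an adjusted p of 0.053.

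The start-site peak did not pass. Its levels were 42.4, 59.5, 33.3, 51.0 and 47.4 CPM in the KO libraries and 45.6, 35.9, 38.7, 41.5 and 47.3 CPM in the WT libraries, with KO libraries both lowest and highest. The fold was 1.17 (0.999 to 1.36, edgeR adjusted p = 0.373).

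**Figure D2:**
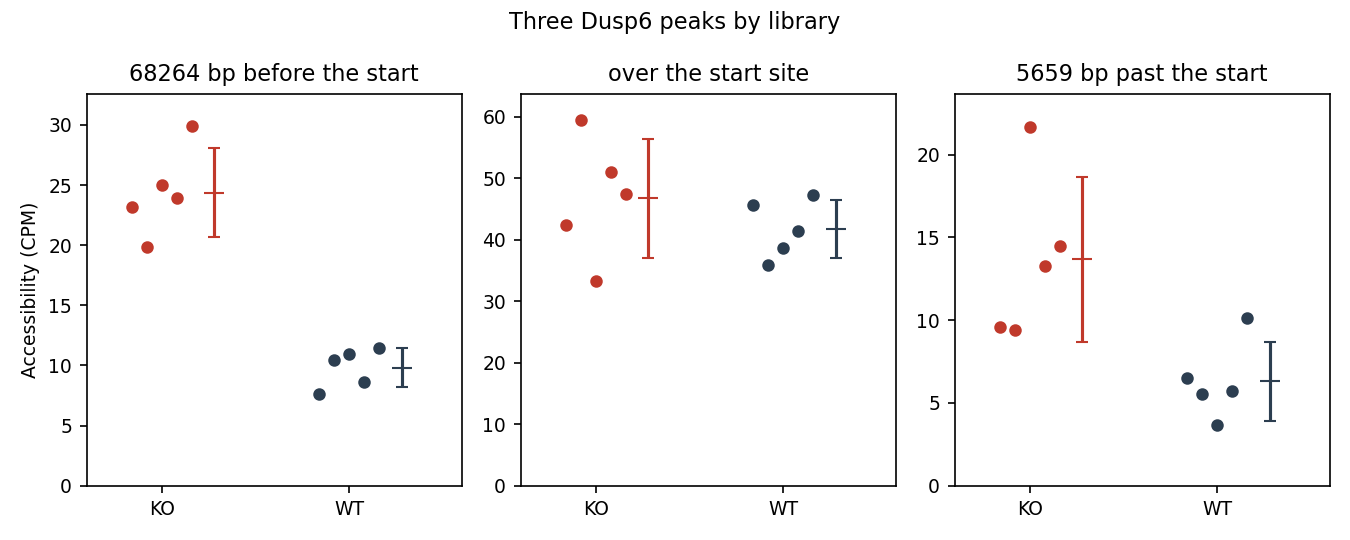
Accessibility (CPM) of each library at the 2 Dusp6 peaks that passed and at the start-site peak, KO left and WT right, with the mean and SD beside the points. At the peak 68264 bp before the start the 5 KO libraries lie at 19.8 to 29.9 CPM and the 5 WT libraries at 7.61 to 11.5 CPM.

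Summed over its 28 peaks, Dusp6 had 397, 408, 398, 454 and 417 CPM in the KO libraries and 375, 373, 350.5, 366 and 379 CPM in the WT libraries. Each KO library exceeded the highest WT library, as in 2.1% of tested genes; the reverse order was seen in 1.14% of genes and in 0 members. The fold was 1.13, a log2 fold change of 0.18 (0.08 to 0.29, edgeR adjusted p = 0.0446 over 12489 genes). It was the only 1 of the 8 genes to pass, against 1.65% of genes called higher and 0.536% lower. The call is fragile: it was lost in 13 of 22 alternatives, with adjusted p-values from 0.0189 to 0.687. It was lost without Sample_2271_KO (adjusted p = 0.236) or Sample_2272_KO (0.11), and without Sample_2273_WT (0.0793), Sample_2275_WT (0.137), Sample_2276_WT (0.0752) or Sample_2277_WT (0.0647). The adjusted p was 0.372 with libraries within sampling noise merged.

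The 2 peaks that passed made up 47.5% of the difference of 46.1 CPM between the groups. They summed to 38.1 ± 7.44 CPM in KO libraries, against 16.1 ± 3.15 CPM in WT libraries. The other 26 peaks summed to 377 ± 24.6 CPM in KO libraries, against 353 ± 9.87 CPM in WT libraries, a ratio of 1.07. A group of 6 peaks from 122563 to 153680 bp past the start, singled out after its values were seen and so not tested as a group, had 133 ± 8.31 CPM in KO libraries, against 107 ± 9.37 CPM in WT libraries. None of its tested peaks passed. The one at 122563 bp had 61.9 ± 8.70 CPM in KO libraries, against 50.3 ± 3.86 CPM in WT libraries (edgeR adjusted p = 0.0894). This group of 6 made up 55.1% of the difference between the groups of libraries, the 4 promoter peaks 11.4% and the 16 remaining peaks -14.0%. All 6 are classed as lying in introns of another transcript, which the annotation gives without a gene number. Of 16 tested peaks of other genes within 200 kb of the Dusp6 start, 0 passed with edgeR. Dusp6 has many peaks: of 99 genes with at least 15 tested peaks, 31.3% had 2 or more called higher.

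**Figure D3:**
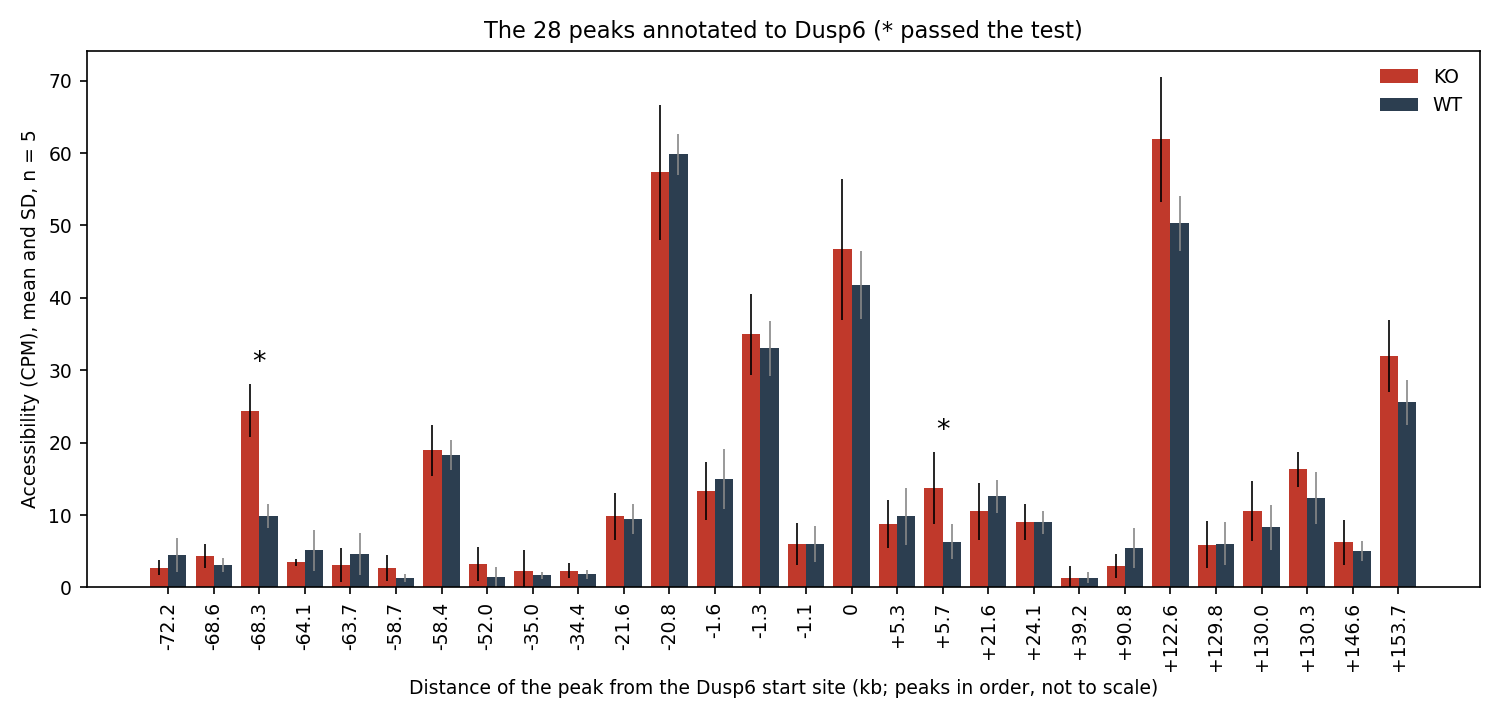
Mean accessibility (CPM, bars start at 0, error bars SD, n = 5) of the 28 Dusp6 peaks, KO left and WT right in each pair, in order of distance from the start site. Stars mark the 2 peaks that passed, with means of 24.4 and 13.7 CPM in KO against 9.83 and 6.31 CPM in WT.

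Promoter and non-promoter peaks of each gene were also summed apart. Over its 24 non-promoter peaks Dusp6 averaged 314 ± 19.1 CPM in KO libraries, against 273 ± 9.91 CPM in WT libraries, a fold of 1.15 (1.07 to 1.24, edgeR adjusted p = 0.00885). It was the only member called, where 6.55% of genes were called in either direction and 4.45% higher. This call was lost without Sample_2271_KO, with DESeq2, with thinning and with merged libraries. On promoter peaks 0 members passed, against 0.684% of genes, and the Dusp6 fold was 1.09 (edgeR adjusted p = 0.689). The ratio of non-promoter to promoter level did not differ between groups beyond its spread for Dusp6 (exact permutation test, two-sided, p = 0.317, adjusted over 8 genes 0.772, smallest possible p 0.00794).

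**Figure D4:**
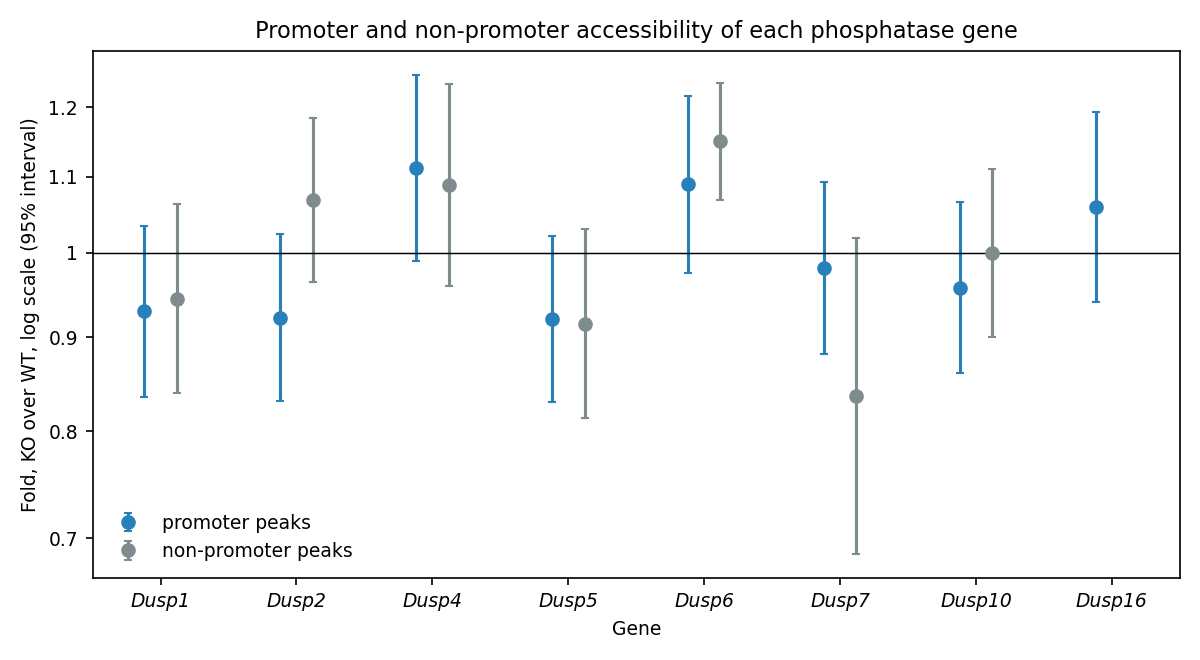
Fold of the summed promoter peaks (blue) and non-promoter peaks (grey) of each gene, KO over WT, on a log axis with 95% intervals. The interval of the Dusp6 non-promoter peaks (1.07 to 1.24) lies above 1; Dusp16 non-promoter peaks had too few counts to be tested.

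Dusp5, the nuclear ERK phosphatase, had 210.4, 204, 223, 204 and 238 CPM in the KO libraries and 203, 248, 247, 247 and 218 CPM in the WT libraries. The groups overlapped, and the fold was 0.921 (0.842 to 1.01, edgeR adjusted p = 0.455). Its start-site peak averaged 93.7 ± 8.24 CPM in KO libraries, against 99.1 ± 3.81 CPM in WT libraries. Its tested peak with the smallest adjusted p, 21592 bp before the start, had a fold of 0.696 (0.481 to 1.01, edgeR adjusted p = 0.374). Dusp7, the cytoplasmic ERK phosphatase related to Dusp6, had a gene fold of 0.934 (0.843 to 1.03, edgeR adjusted p = 0.637). Its strongest promoter peak, 611 bp before the start, averaged 65.5 ± 12.7 CPM in KO libraries, against 73.4 ± 10.8 CPM in WT libraries. Its peak 17578 bp past the start varied most of all tested member peaks, with a coefficient of variation of 78.0% in KO and 75.3% in WT, against medians over these peaks of 23.9% in KO and 17.5% in WT. That peak had 16.8, 7.30, 10.0, 2.66 and 2.00 CPM in the KO libraries and 5.43, 1.10, 19.3, 7.86 and 14.2 CPM in the WT libraries, so neither group stood apart.

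Dusp1, the immediate-early phosphatase of p38 and JNK, had 242, 239.9, 262, 247 and 244 CPM in the KO libraries and 269, 239, 262, 283 and 262 CPM in the WT libraries, which overlapped. Its gene fold was 0.937 (0.865 to 1.02, edgeR adjusted p = 0.536). Its start-site peak, the one that holds the CRE, averaged 111 ± 5.81 CPM in KO libraries, against 128 ± 17.9 CPM in WT libraries (fold 0.877, 0.771 to 0.996, edgeR adjusted p = 0.346).

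Dusp2, a phosphatase enriched in activated lymphocytes, had a gene fold of 1.00 (0.923 to 1.09, edgeR adjusted p = 1), and 3 of its peaks lay near the threshold without passing. A promoter peak 1800 bp before the start had 17.6, 19.8, 15.0, 23.4 and 28.9 CPM in the KO libraries and 26.1, 34.8, 30.3, 29.3 and 31.1 CPM in the WT libraries. Sample_2272_KO lay within the WT range and the other KO libraries below it. The fold was 0.737 (0.604 to 0.901, edgeR adjusted p = 0.072). Of 20 alternatives, 19 left the peak uncalled, with adjusted p-values up to 0.416 (DESeq2). It passed only without Sample_2272_KO, the KO library within the WT range (edgeR adjusted p = 0.0142). Distal peaks 7380 and 29758 bp before the start leaned the other way, with folds of 1.82 and 1.71 (edgeR adjusted p = 0.0729 and 0.0924). Dusp4, a nuclear phosphatase, had 160.0, 145, 142, 157 and 159 CPM in the KO libraries and 135, 147, 138, 142 and 137 CPM in the WT libraries. The groups overlapped, and the fold was 1.10 (1.00 to 1.21, edgeR adjusted p = 0.379). Its promoter peak 98 bp before the start had a fold of 1.10 (edgeR adjusted p = 0.581), and an intronic peak 10182 bp past the start had 0.690 (edgeR adjusted p = 0.359).

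Neither of the JNK and p38 phosphatases passed. Dusp10, which restrains cytokine production in mouse T cells, averaged 246 ± 28.5 CPM in KO libraries, against 249 ± 4.69 CPM in WT libraries (fold 0.979, 0.899 to 1.07, edgeR adjusted p = 0.91). Its start-site peak, among the strongest of all members, averaged 123 ± 14.6 CPM in KO libraries, against 128 ± 4.82 CPM in WT libraries, and an intronic peak 17970 bp past the start had a fold of 0.782 (edgeR adjusted p = 0.574). Dusp16 averaged 75.4 ± 1.52 CPM in KO libraries, against 73.5 ± 5.79 CPM in WT libraries (fold 1.03, 0.913 to 1.15, edgeR adjusted p = 0.929), and its start-site peak had a fold of 1.09 (edgeR adjusted p = 0.762). A p above the threshold does not show equal levels, and these intervals allow changes of the stated size in either direction.

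**Figure D5:**
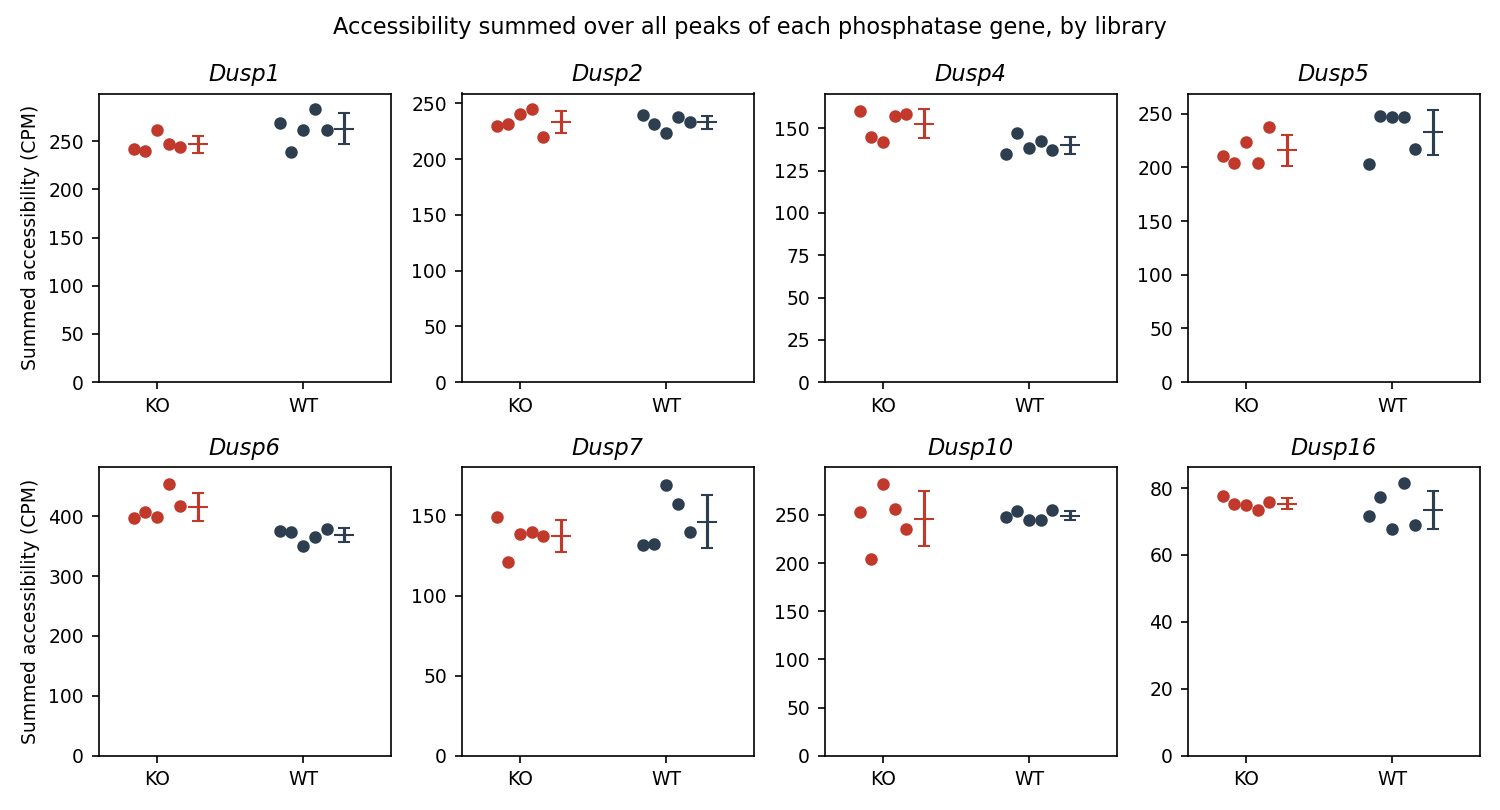
Accessibility summed over all peaks of each gene (CPM, axes start at 0), 1 point per library, KO left and WT right, with the mean and SD beside the points. Dusp6 libraries lie at 397 to 454 CPM in KO and 350.5 to 379 CPM in WT without overlap, and the groups of the other 7 genes overlap.

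Around the 8 phosphatase genes, 71 genes were listed, of which 16 are other dual-specificity phosphatases and the rest belong to the MAP kinase pathway. Of these, 68 were tested, and 2 were higher in KO and 0 lower with edgeR. Over all tested genes 1.65% were called higher and 0.536% lower, so this count lies near the background. Mapk12, which encodes p38 gamma, averaged 14.0 ± 2.36 CPM in KO libraries, against 8.05 ± 1.72 CPM in WT libraries (fold 1.77, edgeR adjusted p = 0.0382). Rasa1, a GTPase-activating protein that switches Ras off, averaged 284 ± 29.5 CPM in KO libraries, against 240.2 ± 8.65 CPM in WT libraries (fold 1.17, edgeR adjusted p = 0.0288). DESeq2 called neither (adjusted p = 0.267 for Mapk12 and 0.12 for Rasa1), and merging libraries gave 0.11 and 0.282. Leaving out single libraries ended the call in 6 of 10 cases for Mapk12 and 7 of 10 for Rasa1. Of the 22 genes of the Ras and ERK arm 0 passed, with Mknk2 nearest (fold 0.896, edgeR adjusted p = 0.211). In the JNK arm 0 of 10 passed, with Mapk9 nearest (fold 0.930, edgeR adjusted p = 0.595). Uncalled genes nearest to the threshold in the p38 arm, the Ras and ERK brakes and the other dual-specificity phosphatases were Mapk13, Spred1 and Cdc25b (edgeR adjusted p = 0.241, 0.27 and 0.32).

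Of 263 tested peaks of these listed genes, 1.9% were called higher and 0.38% lower, against 2.94% and 0.911% of all tested peaks. These shares rest on 5 peaks called higher and 1 called lower, and their distance from the background was not tested. The called peaks are given as single values. The intronic class can refer to an intron of a gene other than the nearest one, and the host gene was not looked up for these peaks. An intronic peak of Map4k1, a kinase that dampens T cell receptor signalling, had 11.4 ± 1.02 CPM in KO libraries, against 3.20 ± 1.39 CPM in WT libraries (fold 3.27, edgeR adjusted p = 2.45e-05). A peak annotated to Dok1, an adaptor that restrains Ras, lay 23117 bp past its start and was classed as intronic. That peak had 14.2 ± 2.16 CPM in KO libraries, against 6.56 ± 1.20 CPM in WT libraries (fold 2.06, edgeR adjusted p = 0.00183). A promoter peak of Ksr1, the ERK scaffold, had 8.03 ± 2.34 CPM in KO libraries, against 14.8 ± 3.19 CPM in WT libraries (fold 0.550, edgeR adjusted p = 0.0117). The Ksr1 peak lost its call without Sample_2275_WT (adjusted p = 0.103) and with DESeq2 (0.142). The other called peaks were distal ones of Rps6ka3 (fold 1.79, edgeR adjusted p = 0.0144) and Rasa1 (fold 1.56, edgeR adjusted p = 0.00236) and an intronic one of Spred2 (fold 1.45, edgeR adjusted p = 0.0414), and DESeq2 called none of these (adjusted p = 0.146, 0.0523 and 0.344). Without Sample_2268_KO or Sample_2275_WT the Rps6ka3 peak was not called, and the Spred2 peak was called in 2 of the 10 fits that leave out a library.

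The genes whose summed level followed Dusp6 most closely over the 10 libraries were Zfp608 (Pearson r = 0.922), Babam2 (0.917) and Setbp1 (0.914). These are the 3 highest values of a search over the tested non-member genes, where 12489 genes were tested in all. Values this high can come from the search alone. All 3 genes were also called higher in KO with edgeR (adjusted p = 1.27e-08, 0.000262 and 0.016), as was Dusp6. With group means removed the r values of these same chosen genes were 0.862, 0.713 and 0.756, and all points share the same libraries and depths.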

How the data were processed

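Counts are the authors' deposited whole-number reads per peak for 10 libraries, not normalized, on 1 peak set in mm10. The second deposited file gives position, class, nearest symbol and distance to the start for each nuclear peak, and assignment to the nearest gene does not show that a peak acts on it. Per the submitters' processing notes, tools included Trimmomatic 0.36, Bowtie2 2.3.5, Picard, deepTools 3.5.2 and 3.3.0, SAMtools 1.9, MACS2 2.1.2, ChIPseeker 1.18.0 and DESeq2 1.22.2, named without their roles. Use of Picard for duplicate removal, any transposase shift of the reads and any pooling before peak calling are not given in the sources used here. Such a shift would move peak borders slightly, and duplicate removal would cap dense peaks.

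Counts were tested with edgeR 4.0.16 in R 4.3.3 (glmQLFTest, TMM, filterByExpr by group), over all peaks and over sums per deposited symbol, with Benjamini-Hochberg adjustment. The fit was tested on simulated data, and no error rate from that test is given here. Levels of peaks and gene sums use the peak fit's scale, so a fitted gene fold can differ slightly from the ratio of levels. Intervals are 95% and approximate. DESeq2 1.42.0, limma 3.58.1 (voom), other filters and scalings, thinning and leaving out libraries were alternatives. Peaks named singly were those called, the strongest promoter peak and the smallest adjusted p of each gene; the 2 distal Dusp2 peaks and the Dusp6 peaks from 122563 bp on were chosen after their values were seen. Members and lists were chosen with earlier results of these data known. Of 8 promoter motifs, 7 were searched first and the CArG box was added after a sequence had been read.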

Additional observations from a re-analysis of the deposited data

How the results depend on the processing

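The alternatives chosen after seeing the data were merging libraries within sampling noise, leaving out the 3 shallowest libraries, and TMM before the count filter. The count of phosphatase peaks higher in KO was 2; it was 1 with DESeq2, 1 with a mean count of at least 20, 0 with thinning, and 2 to 3 with single libraries left out. The count of lower peaks was 0, and 0 to 1 with single libraries left out. The count of genes higher in KO was 1; it was 0 with DESeq2, thinning, TMM on promoter peaks, peaks within 50 kb, merged libraries, without the 3 shallowest and with TMM before the filter, and 0 to 1 with single libraries left out. The non-promoter count of 1 was 0 with DESeq2, thinning and merged libraries, and 0 to 1 with single libraries left out. The count of listed pathway and other phosphatase genes higher was 2. That count was 1 without a filter and with a mean count of at least 20. It was 0 with DESeq2, thinning, merged libraries and without the 3 shallowest, and 0 to 2 with single libraries left out. Near-zero uncalled log2 fold changes changed sign. The Dusp2 sum (0.00083) was -0.0035 without a filter, with merged libraries and with TMM before the filter, -0.026 with thinning, and -0.029 to 0.030 with single libraries left out. The Dusp10 sum (-0.031) was 0.017 with thinning and -0.059 to 0.018 with single libraries left out. The Dusp2 start-site peak (-0.013) was -0.073 to 0.040 with single libraries left out. The cause was not tested. The mean-count filter and thinning left the Dusp6 peak at 5659 bp untested. No paired analysis was possible because the groups share no replicate numbers. Most member peaks hold few counts (median of the mean count 21 among tested peaks), which limits what small changes can be seen.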

Other observations

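A distal peak of Dusp4, 75010 bp before the start (chr8:34732441-34732600), did not pass the count filter and was singled out after its values were seen. It averaged 9.7 counts per library, and tested member peaks averaged as few as 8.6, since the filter does not act on the mean. Counts were 15, 7, 4, 17 and 26 in the KO libraries and 3, 5, 6, 6 and 8 in the WT libraries. In CPM the levels were 9.60 ± 2.80 in KO and 3.77 ± 1.08 in WT (SD, n = 5 each), and no WT library reached the lowest KO library. In the edgeR fit without a filter, its fold was 2.68 and its adjusted p 0.000522, and the count of phosphatase peaks higher in KO was 3. It was the only 1 of 39 untested member peaks with this separation of groups. Among all tested peaks 2.78% had it, and the share among all untested peaks was not computed. The share of all peaks called in the fit without a filter was not computed either.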
